A study of Homo sapiens with 8 samples.

Results

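The proteasome genes examined here were all protein-coding genes of GENCODE release 44 whose symbol begins with PSM and a letter from A to G followed by a digit, except PSMB8 and PSMB9, which were not analysed here. The rule uses names and no measured value, but this family was chosen for description with earlier results of these data known. It gave 48 of the 60675 genes in the files: 8 alpha genes and 7 standard beta genes of the 20S core, 2 beta genes that are inducible or limited to one tissue (PSMB10 and PSMB11), 6 ATPases and 11 further subunits of the 19S particle, 5 genes for activators and an inhibitor, 4 chaperones of 20S assembly, 3 chaperones of the 19S base, and 2 genes that carry such a symbol but encode no proteasome subunit (PSMC3IP, a meiotic recombination factor, and PSME3IP1, a protein that binds the activator PSME3). The samples were Panc10.05, a pancreatic adenocarcinoma line long kept in culture, and a derivative of it that had become resistant to indisulam through culture in rising doses of the drug. Both lines were sequenced without and with 2 µM indisulam, which made 4 groups of 2 libraries. Parental cells were exposed for 18 h. Resistant treated cells were held on the drug continuously, and resistant untreated cells had been taken off it for a week. One resistant derivative was profiled. Growth and treatment notes speak of A549, but titles and the cell line field give Panc10.05 and were followed here. Because the pair of libraries in each group is described as technical replication, the p-values below measure the spread between libraries only.

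The proteasome is the protease that degrades proteins tagged with ubiquitin. Its 20S core is a barrel of outer alpha and inner beta rings in which PSMB5, PSMB6 and PSMB7 carry the active sites, and its 19S cap binds ubiquitin chains, removes them and unfolds the substrate with a ring of ATPases. Interferon replaces the active beta subunits with inducible ones, of which PSMB10 takes the place of PSMB7, and raises PSME1 and PSME2, the subunits of the 11S activator. Cells with too little proteasome activity raise most subunit genes together through NFE2L1, a transcription factor that binds antioxidant response elements. Indisulam acts through this machinery: it tethers the splicing factor RBM39 to the ubiquitin ligase receptor DCAF15, and the proteasome then degrades RBM39 protein.

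Reads assigned to genes numbered 65266253 to 108002436 per library. RBM39 mRNA, the transcript of the drug target, was higher on indisulam in both lines, by 1.11 log2 units in parental and 0.94 in resistant cells. The 6 epithelial markers (KRT7, KRT8, KRT18, KRT19, EPCAM and CDH1) were abundant in every library and differed between the lines, with 6 of 6 higher in resistant cells off the drug (median 0.71 log2 units) and 5 of 6 on it (median 0.91). Their part in the line comparisons below was not tested. The blood marker PTPRC had no read and the endothelial marker PECAM1 at most 8. COL1A1, a fibroblast gene, had group means between 1.44 and 1.59 CPM in 3 groups and of 3.92 CPM in resistant indisulam cells. CPM are read counts per 1e+06 reads after TMM scaling. The chi-square between the libraries of a group averaged 2.04 to 5.87 per gene, above the 1 that sampling alone would give, so every library was kept as its own value. Fewer cells of a kind and less RNA per cell cannot be told apart in such bulk samples.

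The promoters are shown because within each line most of these genes differed with the drug in the same direction, which was opposite between the lines. Whether promoter motifs had a part in this was not tested. RefSeq promoter windows on GRCh38.p14, each from 250 bases before to 50 bases after a start site, matched 42 of the 48 genes. The core of the antioxidant response element (TGACNNNGC, either strand) occurred in a window of 14 of these genes, 33.3%, against 16.1% of all 27305 genes with a window. The ETS motif CCGGAAG occurred in 17 genes, 40.5% against 12.2%, CCAAT in 21 genes, 50% against 39.7%, and the palindromic site of nuclear respiratory factor 1 in 1 gene, 2.38% against 1.52%. Matches of different motifs may overlap. These shares describe letters in a window and say nothing on whether a factor was bound. The 27305 genes were not limited to genes expressed in these cells. The 200 bases before the start site follow for 4 genes described below, 5′ to 3′ on the strand of the gene, with matches to any of the motifs on either strand in capitals. PSMB3 (beta ring, chr17:38752541-38752740, plus strand) holds the response element core and CCAAT. PSMD12 (19S, chr17:67366578-67366777, minus strand) holds the response element core and the ETS motif. PSMC2 (19S ATPase, chr7:103347443-103347642, plus strand) holds CCAAT and the ETS motif, and PSME1 (11S activator, chr14:24135994-24136193, plus strand) holds a response element core.
PSMB3: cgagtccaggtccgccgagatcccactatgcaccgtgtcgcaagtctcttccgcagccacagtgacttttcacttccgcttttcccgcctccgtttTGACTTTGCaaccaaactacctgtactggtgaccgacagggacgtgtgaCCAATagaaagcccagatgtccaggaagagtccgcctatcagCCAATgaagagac
PSMD12: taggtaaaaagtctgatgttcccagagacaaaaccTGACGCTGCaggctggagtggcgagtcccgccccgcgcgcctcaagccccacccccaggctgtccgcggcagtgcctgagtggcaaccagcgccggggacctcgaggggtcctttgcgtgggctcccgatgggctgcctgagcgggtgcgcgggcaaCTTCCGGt
PSMC2: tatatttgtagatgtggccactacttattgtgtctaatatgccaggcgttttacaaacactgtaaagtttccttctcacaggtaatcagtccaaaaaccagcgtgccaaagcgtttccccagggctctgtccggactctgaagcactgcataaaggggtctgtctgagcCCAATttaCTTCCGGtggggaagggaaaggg
PSME1: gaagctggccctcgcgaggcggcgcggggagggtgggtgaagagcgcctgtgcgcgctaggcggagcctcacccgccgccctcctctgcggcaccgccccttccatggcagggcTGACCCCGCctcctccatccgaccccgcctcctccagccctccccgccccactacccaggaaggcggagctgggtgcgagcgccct
The response element core begins at position -104 in PSMB3, -165 in PSMD12 and -86 in PSME1, counted from the start site. On indisulam PSMB3 rose in parental cells (log2 fold change 0.23) and fell in resistant cells (-0.20), whereas PSMD12 rose in parental cells (0.28) and did not pass in resistant cells (0.035, adjusted p = 0.31). PSMC2 and PSME1 are described with the comparisons below.

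Levels per kb of transcript, which alone allow genes to be compared, spanned a wide range among the 46 genes that passed the filter on low counts. In parental untreated cells PSMA7 was the highest at 407 CPM per kb, followed by PSMB7 at 312, PSMD2 at 273, PSMB4 at 271 and PSMC5 at 268. PSMD2 and PSMC5 each differed from PSMB4 by less than its SD of 3.88. The median was 155 CPM per kb over the 7 standard beta genes, 111 over the 6 ATPases and 94.6 over the 11 further 19S genes. Alpha genes spread more widely, from PSMA7 down to PSMA6 at 7.49 and PSMA2 at 2.10, although all alpha subunits enter the core in equal numbers. Both low genes share exons on the same strand with another protein-coding gene. The overlap is 1445 bases in PSMA2 and 919 in PSMA6, or 17.2% and 14.1% of all their annotated exon bases. Their canonical transcripts have 1434 and 1023 bases, and what share of those is affected was not measured. The files show that reads fitting several genes were set aside. The levels of PSMA2 and PSMA6 are therefore uncertain, as are those of PSMA1, PSMB10 and PSMD9, which share exons in the same way. PSMC1 shares 76.1% of its exon bases with NRDE2, PSMC3IP 30.1% with MLX and PSMC5 15.3% with FTSJ3 on the opposite strand, where reads could be told apart only if strand was used. Length was that of the canonical GENCODE transcript, so a gene that uses mainly another transcript is misplaced on this scale.

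The inducible PSMB10 stood at 7.46 CPM per kb in parental untreated cells, below PSMB7 at 312, the standard gene it replaces. PSMA8, a testis subunit, had 0 reads in every library, where a count of 0 still allows up to 3 reads, or 0.0278 to 0.046 CPM of the library totals. PSMB11, a thymus subunit, had at most 2 reads. Neither was tested.

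**Figure D1:**
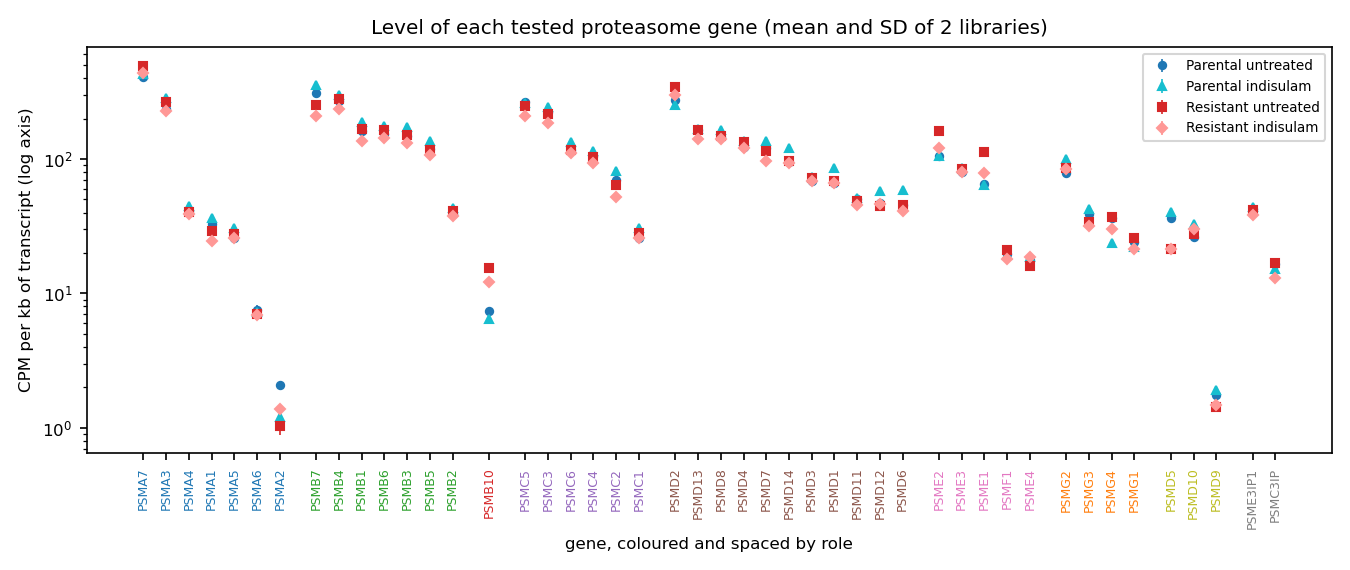
Level of the 46 tested proteasome genes in CPM per kb of canonical transcript (log axis), mean and SD of 2 libraries for each of the 4 groups, genes ordered by role and level. PSMA7 is highest at 407 and PSMA2 lowest among alpha genes at 2.10 in parental untreated cells, and the resistant untreated points of PSMB10, PSME1 and PSME2 stand above the parental ones (15.6 against 7.46 for PSMB10).

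On indisulam more proteasome genes rose than fell in parental cells, by small amounts. With TMM scaling over all tested genes, of the 46 tested genes 30 rose and 6 fell, with a median log2 fold change of 0.13. Over all 16661 genes tested, 31.6% rose and 26.6% fell with a median of 0.01, while among genes with a mean of at least 10 CPM the median was 0.09. When these 8812 genes were fitted alone, 34% rose and 35.3% fell, and of the 43 proteasome genes among them 20 rose and 10 fell, so the split depends on which genes set the scale. Scaling by library totals gave 22 rises and 9 falls among the 46. Over all 16661 genes it gave 3900 rises and 5385 falls with a median of -0.051, and the proteasome median lay 0.115 above that. The reads of the 31 standard 20S and 19S subunit genes together were 6254 and 6231 CPM in the untreated and 6722 and 6949 CPM in the treated libraries, a rise of 9.5%, with no overlap between groups. As a share of all reads in genes, without TMM scaling, the same sum rose by 4.56%, from 0.634% and 0.630% to 0.653% and 0.669%, again without overlap.

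The beta ring moved most evenly. All 7 standard beta genes rose in parental cells, between 0.13 and 0.23 log2 units. PSMB5, the chymotrypsin-like subunit and the target of bortezomib, had 124 and 124 CPM untreated and 136 and 146 CPM on the drug, or 0.19 on the log2 scale (SE 0.034, adjusted p = 5.9e-05). PSMB6, the caspase-like subunit, went from 127 and 128 CPM to 143 and 148 CPM (log2 fold change 0.19, SE 0.033, adjusted p = 2.8e-05). PSMB7, the trypsin-like subunit, went from 308 and 306 CPM to 341 and 358 CPM (0.19, SE 0.032, adjusted p = 2.3e-05). In each of these 3 genes both treated libraries lay above both untreated ones. Of the 7 tested alpha genes 5 rose, most of all PSMA3 (0.27), and PSMA2, at 3.06 and 2.96 CPM untreated and 1.69 and 1.73 CPM treated, fell by 0.81 (SE 0.114, adjusted p = 1.8e-06).

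In the 19S particle 5 of 6 ATPases and 8 of 11 further subunits rose. The largest rises of all were here. PSMD6 went from 62.1 and 61.6 CPM to 79.8 and 79.3 CPM (0.36, SE 0.031, adjusted p = 1.1e-09), and PSMD1, a scaffold subunit, from 222 and 221 CPM to 280 and 286 CPM (0.36, SE 0.027, adjusted p = 2.1e-10). PSMD14, the deubiquitinase that clips the chain from the substrate, went from 148 and 149 CPM to 186 and 194 CPM (0.36, SE 0.031, adjusted p = 1.4e-09). PSMD4, a ubiquitin receptor, had 164 and 163 CPM untreated and 176 and 186 CPM treated (0.15, SE 0.031, adjusted p = 0.00027). PSMD2, the most abundant subunit by reads, fell instead, from 799 and 789 CPM to 730 and 751 CPM, a log2 fold change of -0.10 that turned to 0.024 (adjusted p = 0.48) under a correction for GC content and length, and PSMC5 at -0.04, PSMD11 at 0.01 and PSMD13 at 0.03 did not pass the threshold. The correction moved the median of all genes by 0.084 in this comparison.

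Outside the standard particle the response was mixed. PSMB10 fell from 7.21 and 7.37 CPM to 6.32 and 6.30 CPM (-0.21, SE 0.061, adjusted p = 0.0055). Under a correction for GC content and length, which moved the median of all genes by 0.084, it stood at 0.053 (adjusted p = 0.46). PSME1 had 63.5 and 62.7 CPM untreated and 61.8 and 61.9 CPM treated (-0.03, SE 0.030, adjusted p = 0.43), and PSME2 had 83.1 and 82.6 CPM untreated and 81.5 and 84.2 CPM treated (0.00, SE 0.030, adjusted p = 1), so neither passed the threshold. Of 7 interferon pathway genes (STAT2, IRF1, IRF9, ISG15, IFI6, OAS1 and IFIT1) 5 fell and 0 rose, with a median of -0.32. Among the assembly chaperones of the core, PSMG2 (0.35) and PSMG3 (0.12) rose whereas PSMG1 (-0.12) and PSMG4 fell. PSMG4, which works as a pair with PSMG3, dropped from 28.8 and 28.5 CPM to 19.6 and 17.7 CPM (-0.62, SE 0.048, adjusted p = 6.6e-10), and its treated libraries lay well below the untreated ones. Of the chaperones of the 19S base, PSMD10 (0.33) and PSMD5 (0.16) rose and PSMD9 (0.11) did not pass.

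Leaving out 1 library at a time ended the call of 13 of the 36 genes. Without parental indisulam replicate 2 there were 20 rises and without parental untreated replicate 1 there were 3 falls.

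In resistant cells most proteasome genes were lower on the drug than off it. Falls and rises here compare continuous exposure with a week off the drug, so an effect of the drug and a change on its withdrawal cannot be told apart. Of the 46 genes 34 fell and 3 rose, with a median of -0.14, against 25.8% lower and 24.9% higher over all genes (median 0.01) and 32.3% lower and 33.4% higher among those with a mean of at least 10 CPM (median -0.03 in the fit of all genes). The summed level of the 31 standard subunit genes was 6609 and 6340 CPM off the drug and 5798 and 5770 CPM on it, which decreased by 10.7%, and the groups did not overlap. As a share of all reads in genes it decreased by 7.61%. The 2 untreated libraries differed from each other by more than the 2 treated ones in this sum.

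All 7 standard beta genes fell, between 0.12 and 0.29 log2 units in size. PSMB7 had 255 and 238 CPM off and 206 and 205 CPM on the drug (-0.27, SE 0.033, adjusted p = 4.4e-07). PSMB6 went from 141 and 131 CPM to 119 and 117 CPM (-0.20, SE 0.034, adjusted p = 2.2e-05). PSMB5 went from 125 and 119 CPM to 112 and 110 CPM (-0.14, SE 0.035, adjusted p = 0.0016). Off-drug libraries lay above on-drug libraries in all 3 catalytic genes. Of the 19S genes, 5 of 6 ATPases and 8 of 11 further subunits fell, among them PSMD4 with 180 and 171 CPM off and 160 and 161 CPM on the drug (-0.13, SE 0.032, adjusted p = 0.0015). PSMD14 did not pass, at 154 and 147 CPM off and 143 and 149 CPM on (-0.04, SE 0.032, adjusted p = 0.33), and its groups overlapped.

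The largest falls were in genes of the interferon-inducible set. PSME1 dropped from 110 and 108 CPM to 77.1 and 75.9 CPM (-0.51, SE 0.030, adjusted p = 1.1e-12). PSME2 dropped from 129 and 129 CPM to 97.0 and 94.6 CPM (-0.43, SE 0.030, adjusted p = 2.2e-11), and PSMB10 from 14.9 and 15.6 CPM to 11.8 and 12 CPM (-0.36, SE 0.052, adjusted p = 4.5e-06). The groups stood well apart in each. PSMC3IP, no subunit, lay between PSME2 and PSMB10 with -0.37 (SE 0.044, adjusted p = 1.9e-07), but it overlaps MLX on the opposite strand and the counting strand was not stated. Of the 7 interferon pathway genes 7 fell in the same comparison, with log2 fold changes from -4.83 to -0.41, and their part in the result was not tested.

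The 3 rises were PSMA2 (1.34 and 1.62 CPM off, 2.03 and 1.91 CPM on, 0.42, SE 0.132, adjusted p = 0.01), PSME4, a nuclear activator (114 and 118 CPM off, 133 and 136 CPM on, 0.22, SE 0.033, adjusted p = 9.1e-06), and PSMD10 (41.9 and 39.8 CPM off, 44.2 and 44.3 CPM on, 0.12, SE 0.036, adjusted p = 0.0097). Calls of PSMA2 and PSMD10 were among the 10 of 37 lost without some library. The lowest count of falls was 26, without resistant untreated replicate 1.

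The lines share no library in these 2 drug responses, so the calls can be set side by side. Among the 46 genes 22 rose in parental and fell in resistant cells, including the 7 standard beta genes. That is 47.8%, against 7.78% of all genes tested with the same pair of calls. The share among genes with a mean of at least 10 CPM, which hold 43 of the 46, is not given here. The medians of those genes were 0.09 in parental and -0.03 in resistant cells. Another 7 rose in parental cells and did not pass in resistant cells (PSMA4, PSMC6, PSMD1, PSMD12, PSMD14, PSMD5 and PSMG2), 15.2% against 11.9%, and 7 passed as falls in resistant cells but not in parental cells (PSMC5, PSMD11, PSMD13, PSME1, PSME2, PSME3IP1 and PSMF1), 15.2% against 7.48%. PSMD10 alone rose in both, 2.17% against 11.9%. PSMB10, PSMC3IP, PSMD2, PSMG1 and PSMG4 fell in both, 10.9% against 10.5%, and the parental falls of the first 3 turned to 0.053, 0.019 and 0.024 under the GC and length correction, none past the threshold. That correction moved the parental median of all genes by 0.084. PSMA2 fell in parental and rose in resistant cells, 2.17% against 3.43%, and PSME4 passed as a rise in resistant cells alone, 2.17% against 9.61%. PSMA6 and PSMD9 passed in neither, 4.35% against 24.8%.

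**Figure D2:**
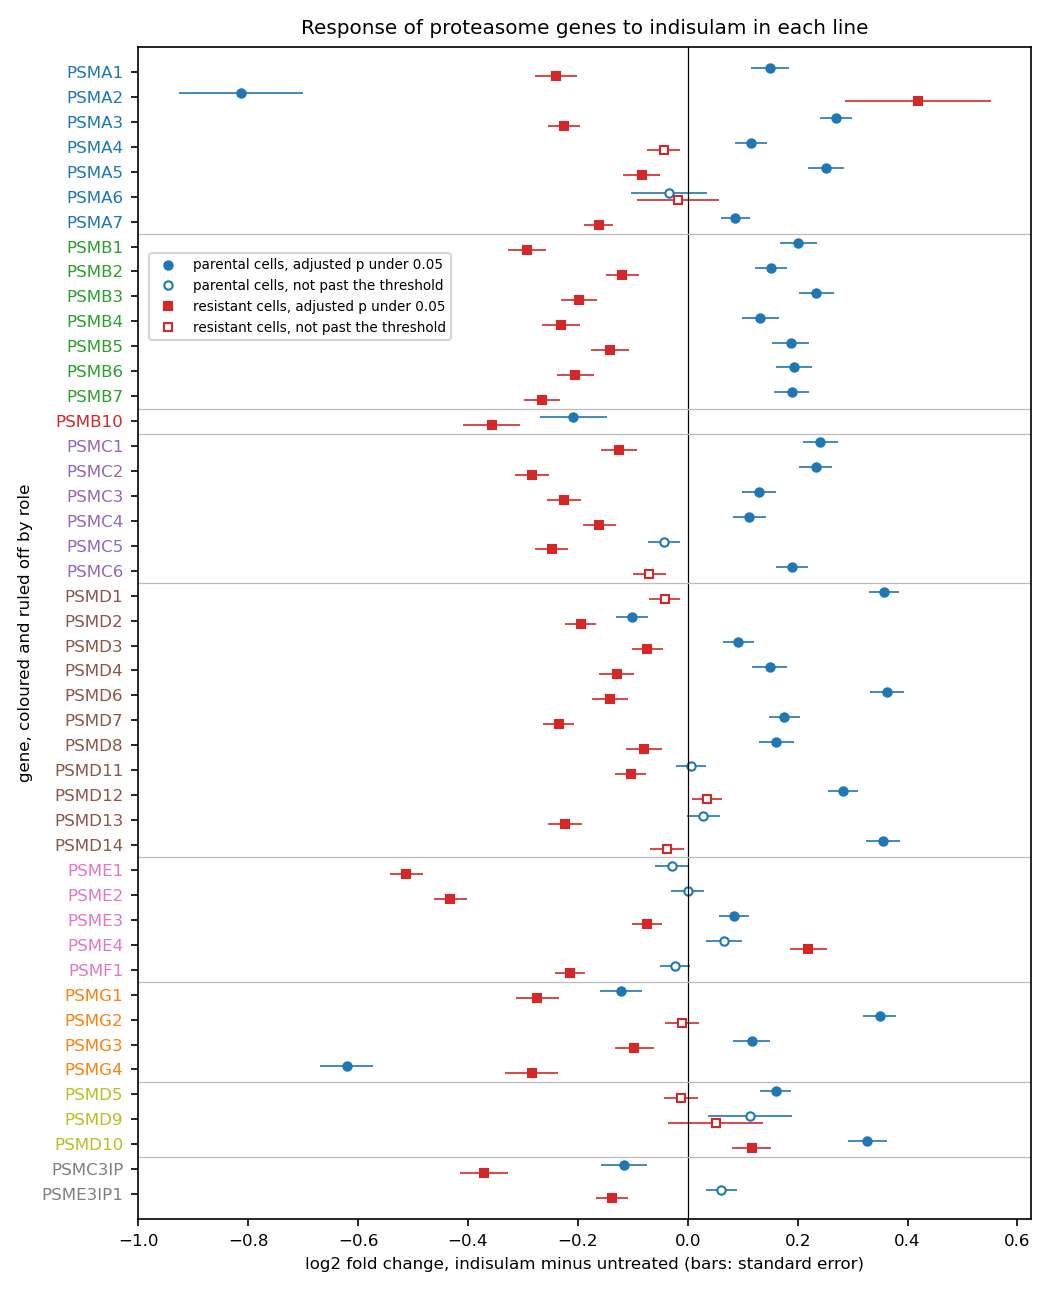
Log2 fold change on indisulam (x axis) of each tested proteasome gene (y axis, by role) in parental cells (blue circles) and resistant cells (red squares) with standard errors, filled where the adjusted p was under 0.05. For the 7 standard beta genes every parental point lies between 0.13 and 0.23 and every resistant point between -0.29 and -0.12.

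The difference between the responses was tested directly, as the resistant minus the parental log2 fold change. The resistant response compares continuous exposure with a week off the drug, and the parental response is to 18 h of exposure. The difference was negative for 39 genes and positive for 3, with a median of -0.26. Over all genes 27.5% were lower and 22.7% higher (median 0.01). Among genes with a mean of at least 10 CPM the median was -0.11, and in their own fit 27.7% were lower and 32.9% higher, with 27 of 43 proteasome genes lower and 2 higher. It was called for all 7 standard beta genes (median -0.40), 6 of 6 ATPases (-0.31), 10 of 11 further 19S subunits (-0.25) and 5 of 7 alpha genes in the negative direction. PSMC2, an ATPase, led with -0.52 (SE 0.043, adjusted p = 2.3e-09). Parental libraries had 188 and 188 CPM untreated and 216 and 226 CPM treated, and resistant libraries 178 and 169 CPM off and 142 and 142 CPM on the drug. PSMD6 followed at -0.51 (SE 0.045, adjusted p = 6.2e-09) and PSMA3 at -0.49 (SE 0.042, adjusted p = 2.4e-09).

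The 3 catalytic genes differed by -0.33 in PSMB5 (SE 0.048, adjusted p = 7.8e-06), -0.40 in PSMB6 (SE 0.047, adjusted p = 4e-07) and -0.45 in PSMB7 (SE 0.045, adjusted p = 4.2e-08). PSMD14 differed by -0.39 (SE 0.044, adjusted p = 1.5e-07) and PSMD4 by -0.28 (SE 0.045, adjusted p = 1.7e-05). PSME1 differed by -0.48 (SE 0.042, adjusted p = 4.9e-09) and PSME2 by -0.43 (SE 0.042, adjusted p = 2.1e-08), and in both the parental change was near 0. PSMB10, lower on the drug in both lines, did not pass (-0.15, SE 0.081, adjusted p = 0.13). The positive differences were PSMA2 (1.23, SE 0.174, adjusted p = 3.6e-06), PSMG4 (0.34, SE 0.069, adjusted p = 0.00033) and PSME4 (0.15, SE 0.047, adjusted p = 0.0093). The 4 calls lost without some library were PSMA4, PSMD11, PSME4 and PSMG1.

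**Figure D3:**
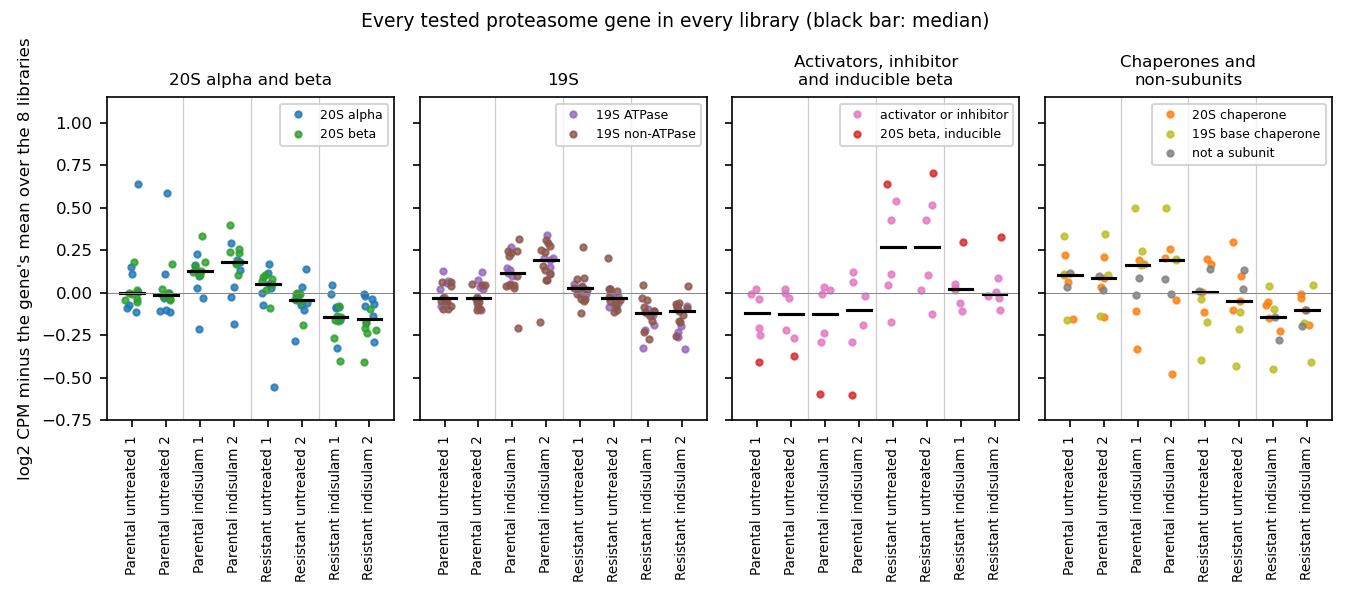
Log2 CPM of every tested proteasome gene in each of the 8 libraries (x axis) minus its mean over the libraries (y axis), in 4 panels by role, with the median of each panel as a black bar. In the 20S and 19S panels the parental indisulam libraries have the highest medians and the resistant indisulam libraries the lowest, and in the activator panel the resistant untreated libraries stand highest.

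Without the drug the lines differed little in the standard particle and clearly in the inducible one. Resistant cells had 15 genes higher and 11 lower, with a median of 0.02, against 30.3% higher and 29.9% lower over all genes (median -0.01) and 35.5% and 36.5% among those with a mean of at least 10 CPM (median 0.01). These shares lie close to the background. The median turned to -0.05, with 15 higher and 21 lower, under a correction for GC content and length, and scaling by library totals gave 10 higher and 14 lower. Over all 16661 genes the correction gave 4139 higher and 6551 lower with a median of -0.083. Library totals gave 4599 higher and 5415 lower with a median of -0.043. The proteasome median lay above that of all genes by 0.034 with the correction and 0.039 with library totals. The sum of the 31 standard subunit genes was 3.72% higher in resistant cells, and its resistant libraries (6609 and 6340 CPM) both lay above the parental ones. As a share of all reads in genes the gap was 1.76% and the lines overlapped, at 0.656% and 0.631% in resistant against 0.634% and 0.630% in parental libraries, so the sum did not separate the lines on every scale.

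PSMB10 led the rises: 7.21 and 7.37 CPM in parental and 14.9 and 15.6 CPM in resistant cells, 2.09-fold (log2 1.06, SE 0.054, adjusted p = 2.2e-14). PSMB10 shares 640 exon bases, 39.4% of all its annotated ones, with another gene on the same strand, so its value is uncertain. PSME1 went from 63.5 and 62.7 CPM to 110 and 108 CPM (0.79, SE 0.030, adjusted p = 6.1e-17) and PSME2 from 83.1 and 82.6 CPM to 129 and 129 CPM (0.64, SE 0.029, adjusted p = 3.1e-15). In all 3 the lines stood far apart. PSMB10 lies on chromosome 16 (67934506 to 67936864), and PSME1 (24136163 to 24138967) and PSME2 (24143362 to 24147570) lie side by side on chromosome 14 of GRCh38. The 20 nearest tested genes of each had a median of 0.01 to 0.02 in the same comparison. The 7 interferon pathway genes were higher in resistant cells by 1.11 to 7.59 log2 units, 7 of 7 past the threshold, and their part was not tested.

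The largest falls were PSMA2 (-1.03, SE 0.119, adjusted p = 6.7e-08), PSMD5 and PSMB7. PSMA2 had few reads, with 3.06 and 2.96 CPM in parental and 1.34 and 1.62 CPM in resistant cells. It shares exons with another gene on the same strand, so its value is uncertain. PSMD5, a chaperone that holds the base of the 19S particle during assembly, had 122 and 123 CPM in parental and 73.6 and 71.8 CPM in resistant cells (-0.75, SE 0.030, adjusted p = 1.8e-16). PSMB7 had 308 and 306 CPM against 255 and 238 CPM (-0.32, SE 0.032, adjusted p = 1.2e-08). These 2 are the only members on chromosome 9, PSMD5 at 120815496 to 120842951 and PSMB7 at 124353465 to 124415444. The 20 nearest tested genes had a median of -0.75 around PSMD5 and -0.41 around PSMB7, and the tested genes of chromosome 9 a median of -0.43, the lowest of the chromosomes. The remaining catalytic genes did not fall: PSMB5 stood at -0.02 (SE 0.034, adjusted p = 0.67) and PSMB6 was higher by 0.09 (SE 0.033, adjusted p = 0.021). PSMD4 was higher by 0.10 (SE 0.031, adjusted p = 0.0065) and PSMD14 stood at 0.02 (SE 0.031, adjusted p = 0.57). Of 26 calls 11 were lost without some library, those of PSMB6 and PSMD4 among them. The rises numbered 8 without parental untreated replicate 2 and 9 without resistant untreated replicate 1, and the falls 7 without resistant untreated replicate 2.

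**Figure D4:**
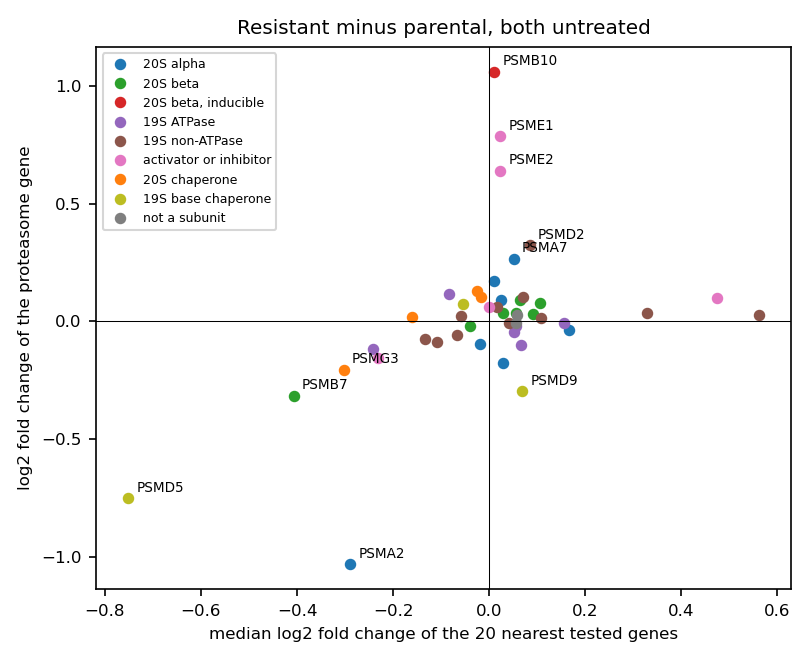
Log2 fold change of each tested proteasome gene between untreated resistant and parental cells (y axis) against the median of its 20 nearest tested genes on the chromosome (x axis), coloured by role. PSMD5 and PSMB7 sit low on both axes at -0.75 and -0.41 on the x axis, while PSMB10, PSME1 and PSME2 are high on the y axis with neighbours near 0.

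On the drug most of the standard particle was lower in resistant cells. Of the 46 genes 36 were lower and 5 higher, median -0.24, against 34.9% lower and 34.6% higher over all genes (median 0.00) and 38.5% lower and 41.1% higher among those with a mean of at least 10 CPM, whose median was -0.10. That last fit put 29 of 43 proteasome genes lower and 7 higher. This comparison uses the treated libraries of both drug responses, so it restates them from the other side. PSMD5 was lowest, with 136 and 137 CPM in parental and 70.9 and 73.0 CPM in resistant cells (-0.92, SE 0.030, adjusted p = 3.3e-18). PSMB7 followed, with 341 and 358 CPM against 206 and 205 CPM (-0.77, SE 0.032, adjusted p = 1.3e-15), and then PSMC2, with 216 and 226 CPM against 142 and 142 CPM (-0.63, SE 0.031, adjusted p = 7.8e-15). All 3 lie in stretches whose 20 nearest tested genes were also lower, with medians of -1.01 around PSMD5, -0.56 around PSMB7 and -0.35 around PSMC2.

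The remaining catalytic and cap genes were lower by smaller amounts. PSMB5 was lower at -0.35 (SE 0.034, adjusted p = 6.9e-09), PSMB6 at -0.31 (SE 0.033, adjusted p = 2.6e-08), PSMD14 at -0.37 (SE 0.031, adjusted p = 2e-10) and PSMD4 at -0.17 (SE 0.032, adjusted p = 3.3e-05). The inducible genes were higher in resistant cells: PSMB10 by 0.91 (SE 0.059, adjusted p = 1.8e-12), PSME1 by 0.31 (SE 0.031, adjusted p = 4.3e-09) and PSME2 by 0.21 (SE 0.030, adjusted p = 1.5e-06). The value of PSMB10 is uncertain here too, because of the exons it shares on the same strand. Under the GC and length correction PSME2 turned to -0.078 (adjusted p = 0.011), while the median of all genes moved by -0.192, to -0.189. The 20 nearest tested genes had medians of 0.218 around PSMB10, 0.205 around PSME1 and 0.254 around PSME2. PSMG4, with 19.6 and 17.7 CPM in parental and 23.4 and 24.1 CPM in resistant cells, was higher by 0.36 (SE 0.051, adjusted p = 2.1e-06), and PSMD2 by 0.23, which turned to -0.095 (adjusted p = 0.0034) under the same correction. The interferon pathway genes were again higher, 7 of 7, by 0.88 to 3.67 log2 units.

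**Figure D5:**
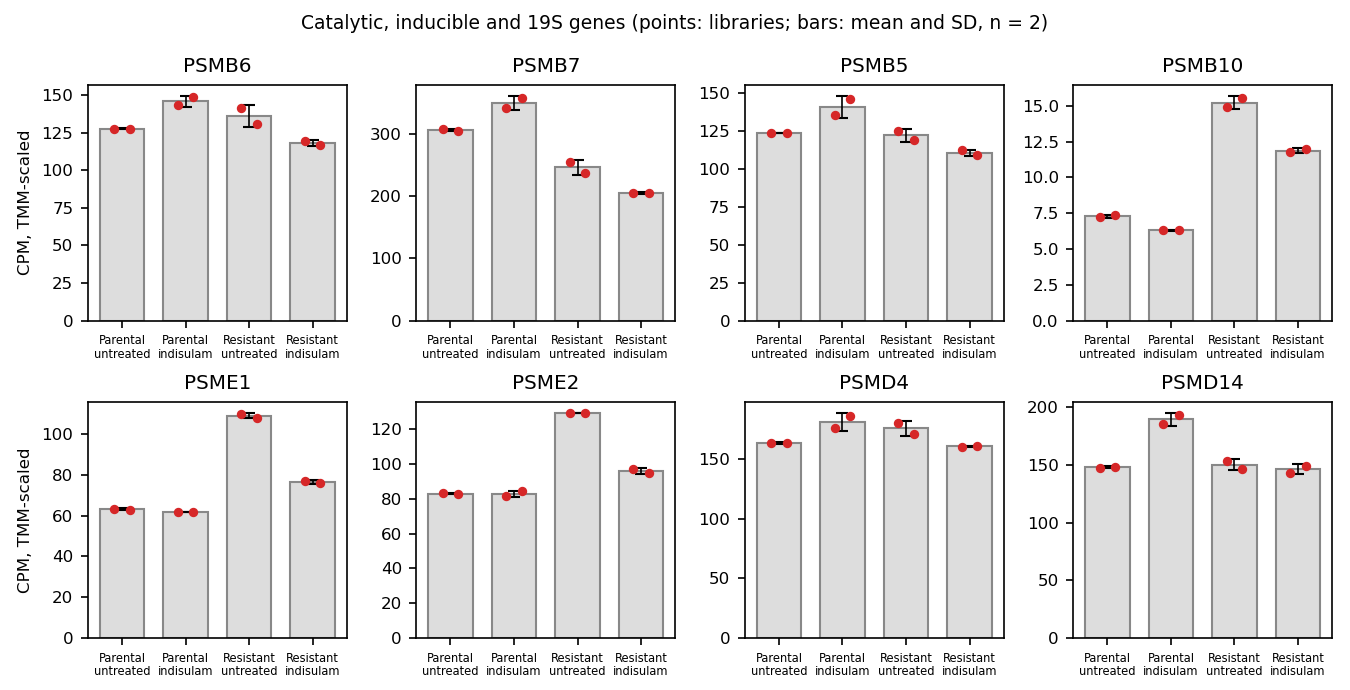
CPM (y axes from 0) of the 3 catalytic genes, the inducible PSMB10, PSME1 and PSME2, and the 19S genes PSMD4 and PSMD14 in the 4 groups, with each library as a point and the mean and SD of 2 libraries as a bar. PSMB10 lies at or below 7.37 CPM in parental cells and at or above 11.8 CPM in resistant cells, and PSMB5, PSMB6, PSMB7 and PSMD14 peak in parental indisulam cells.

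The ratio of PSMB10 to PSMB7 CPM was 0.0234 and 0.0241 in parental libraries without the drug and 0.0185 and 0.0176 with it. Resistant libraries gave 0.0584 and 0.0655 off the drug and 0.0571 and 0.0587 on it. The lines did not overlap in this ratio. Treated parental libraries lay below untreated ones, and the resistant groups overlapped. A ratio within a library shows unequal change of the 2 genes and not which of them changed. Because PSMB10 shares exons with another gene on the same strand, the ratio is uncertain as well.

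Other genes of the pathway were read from lists chosen with earlier results of these data known. Their counts stand beside the shares of all genes called, which were 31.6% higher and 26.6% lower on indisulam in the parental line, 24.9% and 25.8% in the resistant line, 22.7% and 27.5% for the difference, 30.3% and 29.9% between lines off the drug and 34.6% and 34.9% on it. Subunits and assembly factors without a PSM symbol (ADRM1, SEM1, UCHL5, USP14, POMP and PAAF1) came first. In parental cells 5 of 6 rose on the drug, most of all USP14, a deubiquitinase of the 19S cap (0.28, SE 0.031, adjusted p = 4.3e-08), and PAAF1 fell (-0.33, SE 0.044, adjusted p = 1.1e-06). In resistant cells 3 fell and 0 rose, PAAF1 the most (-0.44, SE 0.046, adjusted p = 3.7e-08). The difference of the responses was negative for 5, most of all for POMP, the maturation factor of the core (-0.40, SE 0.042, adjusted p = 6e-08). Between the lines off the drug ADRM1 was higher (0.18) and SEM1 lower (-0.21), and on the drug 5 were lower, SEM1 the most (-0.59).

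Of the 7 regulators (NFE2L1, NFE2L2, DDI2, NGLY1, VCP, AKIRIN2 and MIDN) 5 rose and 2 fell in parental cells. NFE2L2, the relative of NFE2L1 known for the oxidative stress response, rose most (0.44, SE 0.028, adjusted p = 1e-11), and NGLY1, the glycanase that processes NFE2L1, fell (-0.64, SE 0.053, adjusted p = 7.9e-10). In resistant cells AKIRIN2, which guides proteasomes into the nucleus, rose most (0.39, SE 0.039, adjusted p = 1.3e-08) and NGLY1 alone fell (-0.72, SE 0.050, adjusted p = 2.5e-11). NFE2L1 rose in both lines, by 0.23 in parental cells (SE 0.029, adjusted p = 3.7e-07) and 0.11 in resistant cells (SE 0.029, adjusted p = 0.002). Its part in the subunit changes was not tested. The difference of the responses was negative for 4 regulators and positive for 0, led by NFE2L2 (-0.45, SE 0.041, adjusted p = 6.2e-09). Off the drug 3 of the 7 regulators were higher and 2 lower in resistant cells, counts near those shares of all genes, from NGLY1 at 0.64 to VCP, the segregase that extracts ubiquitinated proteins, at -0.51, and 1 higher and 4 lower on it, from NGLY1 at 0.56 to VCP at -0.67.

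Of the 10 shuttle and associated factors 8 rose and 1 fell in parental cells, from UBQLN2 at 0.30 (SE 0.032, adjusted p = 2.9e-08) to UBQLN4 at -0.09. In resistant cells 1 rose (UBQLN2, 0.08) and 4 fell, TXNL1 the most (-0.17), and the difference was negative for 8, TXNL1 again the most (-0.39, SE 0.048, adjusted p = 5.3e-07). Between lines off the drug 3 were higher and 5 lower, from UBQLN2 at 0.22 to ECPAS at -0.76, and on the drug 1 was higher, UBQLN4 at 0.11, and 7 lower, RAD23B the most at -0.95. VCP, RAD23B, UBQLN1, ECPAS and ZFAND5 lie on chromosome 9, as PSMD5 and PSMB7 do. Of the 3 ubiquitin genes tested (UBB, RPS27A and the activating enzyme gene UBA1), 2 rose in parental cells (UBB the most, 0.20) and 2 fell in resistant cells (RPS27A the most, -0.20), and 3 of 3 had a negative difference, RPS27A the most (-0.34). Off the drug 1 was higher in resistant cells (UBA1, 0.097) and 1 lower (RPS27A, -0.28), and on it 2 were lower, RPS27A the most at -0.62. Near-identical copies and pseudogenes make the counts of UBB and RPS27A uncertain.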

How the data were processed

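The authors sequenced stranded libraries of polyadenylated RNA as read pairs, trimmed them with SeqPurge and aligned them to GRCh38 with HISAT2 2.2.1, and their processing notes also name Picard and HTSeq. They deposited raw counts of reads per gene for 8 libraries. Closing lines of the files show that duplicates and reads fitting several genes were set aside, and the strand setting and annotation of the counting are not given in the sources used here. Identifiers were matched to GENCODE release 44 (60419 of 60675).

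Analysis of the deposited counts used edgeR 4.0.16 (R 4.3.3) with filterByExpr (16661 genes kept), TMM scaling and a robust quasi-likelihood fit of 4 group means to 8 libraries (4 residual degrees of freedom). Tests of 5 contrasts were adjusted by Benjamini-Hochberg over all genes tested, and an adjusted p under 0.05 was called. SE is the log2 fold change divided by the square root of F. The code was tested on simulated data. An exact permutation test of 2 against 2 libraries cannot go below p = 0.333. Depth was 65266253 to 108002436 reads, so counting noise alone was small for most of these genes.

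Members and gene lists were chosen with earlier results of these data known. Some genes of the interferon pathway and ubiquitin lists are not reported here. Statistics in full were given for the 3 largest called rises and falls of each comparison and for PSMB5, PSMB6, PSMB7, PSMB10, PSME1, PSME2, PSMD4 and PSMD14. For other pathway lists the largest called rise and fall were given, and the drug responses of NFE2L1 were added. Alternatives were DESeq2 1.42.0 (size factors, Wald test), library totals, other filters, GC and length curves (mgcv 1.9.3), a replicate block, glmTreat, a stricter threshold and leaving out each library. Figures used matplotlib 3.10.9 in Python 3.11.15. RefSeq promoter windows were searched for motifs on both strands.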

Additional observations from a re-analysis of the deposited data

Results flagged for a closer look

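The drug responses of the lines were compared by the interaction test, and it passed the threshold for 42 of the 46 tested genes. Over all genes tested it passed as higher for 22.7% and as lower for 27.5%. The values are the log2 fold change on indisulam in resistant cells minus that in parental cells. A negative value means a resistant log2 fold change below the parental one, which can be a smaller rise, an opposite change or a larger fall. Of the alpha ring these genes differed: PSMA1 by -0.39, PSMA2 by 1.232, PSMA3 by -0.494, PSMA4 by -0.159, PSMA5 by -0.336 and PSMA7 by -0.248. Of the standard beta ring these genes differed: PSMB1 by -0.493, PSMB2 by -0.27, PSMB3 by -0.431, PSMB4 by -0.362, PSMB5 by -0.329, PSMB6 by -0.398 and PSMB7 by -0.454. Of the 19S ATPases these genes differed: PSMC1 by -0.366, PSMC2 by -0.516, PSMC3 by -0.355, PSMC4 by -0.272, PSMC5 by -0.205 and PSMC6 by -0.26. Of the further 19S subunits these genes differed: PSMD1 by -0.398, PSMD3 by -0.166, PSMD4 by -0.278, PSMD6 by -0.505, PSMD7 by -0.41, PSMD8 by -0.24, PSMD11 by -0.11, PSMD12 by -0.248, PSMD13 by -0.25 and PSMD14 by -0.394. Of the activators and inhibitor these genes differed: PSME1 by -0.483, PSME2 by -0.432, PSME3 by -0.159, PSME4 by 0.153 and PSMF1 by -0.193. Of the chaperones of 20S assembly these genes differed: PSMG1 by -0.152, PSMG2 by -0.36, PSMG3 by -0.214 and PSMG4 by 0.337. Of the chaperones of the 19S base these genes differed: PSMD5 by -0.173 and PSMD10 by -0.211. Of the genes that encode no subunit these genes differed: PSMC3IP by -0.254 and PSME3IP1 by -0.198. PSMA2 had few reads and shares exons with another gene on the same strand, as given above, so its positive value is uncertain. PSMA6, PSMB10, PSMD2 and PSMD9 did not pass. Groups of 2 libraries are too small for the check on single libraries far from the rest.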

How the results depend on the processing

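The direction of the median over proteasome genes held under every alternative in 4 of the 5 comparisons: 0.06 to 0.22 log2 units for the drug in parental cells, -0.22 to -0.09 for the drug in resistant cells, -0.40 to -0.13 between lines on the drug and -0.41 to -0.14 for the difference of the responses. Between lines off the drug it ranged from -0.05 to 0.06. It was -0.049 under the GC and length correction with and without the block, where the median of all genes was -0.083. The cause of changes below was not tested.

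Counts of higher and lower genes moved by over 1.5 times as follows. A glmTreat test against 0.2 log2 units left 7 higher and 2 lower in parental cells, 0 and 8 in resistant cells, 5 and 3 between lines off the drug, 3 and 22 on it, and 20 lower for the difference; it asks for larger changes by construction. In parental cells 10 were lower in the fit of genes averaging at least 10 CPM, and 2 were lower under the GC and length correction with and without the block. The DESeq2 Wald test left 1 higher in resistant cells. Under the GC and length correction 21 were lower between lines off the drug (20 with the block) and 2 higher on it (1 with the block), where library totals gave 8 higher. Over all 16661 genes the correction without the block gave 3436 lower in parental cells. Between lines it gave 6551 lower off the drug and 3827 higher on it, where library totals gave 6835 higher.

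Leaving out each library gave 20 to 30 higher and 3 to 7 lower in parental cells, 2 to 3 and 26 to 35 in resistant cells, 8 to 19 and 7 to 12 between lines off the drug, 5 and 32 to 36 on it, and 2 to 3 and 36 to 40 for the difference.

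Some called genes changed sign. In the fit of genes averaging at least 10 CPM these were PSMA7 (-0.001) and PSME3 (-0.002) in parental cells, PSMD3 (0.009), PSME3 (0.017) and PSMF1 (0.021) between lines on the drug, and PSMD11 (0.015) for the difference, where library totals gave 0.005. Under the GC and length correction, with and without the block alike, they were PSMB10 (0.053), PSMC3IP (0.019) and PSMD2 (0.024) in parental cells, PSMB2 (-0.016), PSMC1 (-0.042), PSME3 (-0.069) and PSMF1 (-0.105) between lines off the drug, and PSMD2 (-0.095) and PSME2 (-0.078) on it. The correction without the block moved the median of all genes by 0.084 in parental cells, -0.068 between lines off the drug and -0.192 on it.

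Library totals shifted the median of all genes by 0.115 for the difference, and the GC and length correction by -0.124 there and by -0.192 between lines on the drug. Relative to all genes the proteasome median of the difference was -0.267 in the reported fit and with library totals, -0.299 with the correction and -0.163 among genes whose CPM averaged at least 10.

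Deviations of same-numbered libraries correlated between -0.19 and 0.14, so the numbers do not pair the libraries. The replicate block weakened 3 of 230 calls and gave 30 higher and 6 lower in parental cells, 3 and 32 in resistant cells, 14 and 11 between lines off the drug, 5 and 36 on it and 3 and 39 for the difference. A block with crossed numbers in the resistant line, added after the data were seen, gave 3 higher and 32 lower.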
